A study of Mus musculus with 12 samples.

Results

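The proteasome and immunoproteasome genes are 42 genes whose symbols were looked up in the deposited count table, which has 23282 rows. All 42 were found, and all 42 had enough counts to be tested among the 11857 genes kept. The proteasome is the protease of the cytosol and nucleus that unfolds and degrades proteins tagged with ubiquitin. Its barrel-shaped core is built of alpha and beta rings, and a regulatory cap of ATPases and non-ATPase subunits recognises and unfolds the substrate. In immune cells, and in other cells exposed to interferon, the catalytic beta subunits encoded by Psmb5, Psmb6 and Psmb7 can be replaced by those encoded by Psmb8, Psmb9 and Psmb10. The activator of Psme1 and Psme2 can take the place of the cap. This immunoproteasome cuts peptides suited to presentation on MHC class I.

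The libraries came from splenic B cells of C57BL/6 wild-type mice aged 7 weeks, which the series description calls lupus-prone. ODN+IM156 mice received a class B CpG-ODN, number 1826, a synthetic DNA ligand of the receptor TLR9, at 50 µg into the peritoneum on days 1 and 3. On days 0 and 2 they also received IM156, named in the series title as an inhibitor of oxidative phosphorylation, by the same route (30 mg/kg). ODN mice and IM156 mice received 1 of these agents on the same days and at the same dose, and Control mice received none. Spleens were taken on day 4, and each group has 3 libraries. No vehicle, sex, batch or number of animals per library is given, so the agents and the injections themselves cannot be told apart.

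Library totals lay between 9650775 and 11532525 counts, and the 42 genes had 196 to 6940 counts in a library (median 1125.5). Xist, which coats the silenced X chromosome, had 1 count in ODN replicate 3 and 924 to 1320 CPM in each of the remaining 11 libraries. ODN replicate 2 held 1.46% of its counts in the ribosomal RNA row Rn45s, against 4.78% to 9.63% elsewhere. Summed over 8 B-cell markers such as Cd79a and Ms4a1, levels spanned 7432 to 7936 CPM across ODN+IM156 libraries, 6968 to 8114 CPM across ODN libraries, 7913 to 7993 CPM across IM156 libraries and 7612 to 8805 CPM across Control libraries. Of these 8 markers, 1 (Fcer2a) fell in ODN over Control and in ODN+IM156 over Control. Cr2, another of the 8, had 1215 CPM in ODN replicate 1 against 2472 and 2286 in ODN replicates 2 and 3. The neutrophil genes S100a8 and S100a9 had 36.3 and 48.2 CPM in ODN replicate 1. They had 9.88 and 11.9 CPM in ODN replicate 2 and 11.0 and 12.9 in ODN replicate 3. Levels are in CPM, counts per 1000000 of the scaled library, and fold changes are on the log2 scale with the standard error (SE) of the fit. Genes with an adjusted p below 0.05 were called (edgeR's quasi-likelihood test, Benjamini-Hochberg over all genes tested). In bulk RNA, fewer cells of a type and less RNA per cell cannot be told apart.

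Psmb9, Psme1 and Psmb8 are the immunoproteasome genes called below, and Pomp encodes the chaperone that matures the core particle. Their start-site windows are shown so that the letters around an annotated start can be read beside the genes' levels. Each window runs from 250 bases before to 50 bases after an annotated start, 5′ to 3′ on the strand of the gene (RefSeq, GRCm38.p6). They lie at chr17:34187281-34187580 (minus strand, Psmb9), chr14:55578244-55578543 (plus strand, Psme1), chr17:34197945-34198244 (plus strand, Psmb8) and chr5:147860378-147860677 (plus strand, Pomp). The RefSeq starts lie downstream of the outermost starts in GENCODE, by 434 bases for Psmb9, 371 for Psme1, 474 for Psmb8 and 167 for Pomp. Of the 4 windows, 3 therefore lie wholly within the GENCODE gene, all but that of Pomp. Capitals mark letters matching 1 of 5 searched motifs.
Psmb9: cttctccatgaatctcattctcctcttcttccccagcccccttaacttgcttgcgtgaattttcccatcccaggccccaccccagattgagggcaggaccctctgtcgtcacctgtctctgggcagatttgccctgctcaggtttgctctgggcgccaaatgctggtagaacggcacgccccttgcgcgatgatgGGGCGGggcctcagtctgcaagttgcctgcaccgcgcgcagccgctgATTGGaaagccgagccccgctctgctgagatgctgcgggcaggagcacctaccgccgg
Psme1: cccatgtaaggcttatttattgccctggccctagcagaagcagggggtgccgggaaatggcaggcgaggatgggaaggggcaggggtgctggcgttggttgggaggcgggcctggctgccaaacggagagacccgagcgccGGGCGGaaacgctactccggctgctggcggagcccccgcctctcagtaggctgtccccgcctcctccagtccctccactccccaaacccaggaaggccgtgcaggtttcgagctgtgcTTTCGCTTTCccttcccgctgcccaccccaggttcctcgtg
Psmb8: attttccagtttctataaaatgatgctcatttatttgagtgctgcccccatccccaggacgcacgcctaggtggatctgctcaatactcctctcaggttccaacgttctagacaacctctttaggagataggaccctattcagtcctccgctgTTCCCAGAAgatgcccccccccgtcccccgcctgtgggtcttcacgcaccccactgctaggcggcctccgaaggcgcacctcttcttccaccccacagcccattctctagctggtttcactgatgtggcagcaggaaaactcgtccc
Pomp: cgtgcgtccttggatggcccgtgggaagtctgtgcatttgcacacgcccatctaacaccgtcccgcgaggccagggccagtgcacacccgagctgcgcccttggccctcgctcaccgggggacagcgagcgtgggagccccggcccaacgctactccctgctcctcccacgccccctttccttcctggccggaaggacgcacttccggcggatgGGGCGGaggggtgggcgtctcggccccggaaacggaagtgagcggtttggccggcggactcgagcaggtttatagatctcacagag

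Both strands were searched for an interferon regulatory factor pair (GAAA, then 2 bases of any kind, then GAAA), a STAT site (TTCNNNGAA), an antioxidant response element (TGACNNNGC), a CCAAT box (CCAAT) and a GC box (GGGCGG), none of which contains another. The Psmb9 window holds a GC box at position -55 from the start and a CCAAT box, read on the other strand as ATTGG, at -8. The Psme1 window holds a GC box at -109 and, 9 bases after the start, the interferon regulatory factor pair as TTTCGCTTTC on the other strand. The Psmb8 window holds the STAT letters TTCCCAGAA at -97, and the Pomp window a GC box at -36. Windows were found for 36 of the 42 genes. Of 6 immunoproteasome windows, 1 holds the interferon regulatory factor pair, 1 the STAT site, 0 the antioxidant response element, 1 the CCAAT box and 4 the GC box. Of 33 windows of the other genes (31 genes), the numbers are 3, 1, 6, 12 and 20 in the same order. The 6 immunoproteasome windows belong to 5 genes, since Psme2 has 2 overlapping windows that hold the same GC boxes. By gene, 3 of the 5 hold a GC box. Among all 32851 windows of the same length, these motifs occur in 3.44%, 8.30%, 12.4%, 37.4% and 35.7%. A match is a description of letters, and no match says only that the letters are not in that window.

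Psmb9 had the largest fold change of the 42 genes in ODN over Control, in ODN+IM156 over Control and in ODN+IM156 over IM156. It encodes the inducible subunit that replaces Psmb6, and it lies on chromosome 17 at 34181987 to 34187764 (GRCm38), 9956 bases from Psmb8. Psmb9 had 313, 282 and 297 CPM in the ODN+IM156 libraries, 283, 329 and 293 in the ODN libraries, 168, 175 and 164 in the IM156 libraries and 182, 150 and 160 in the Control libraries. All 6 libraries with ODN were above all 6 without it. Psmb9 rose by 0.88 (SE 0.0902, adjusted p = 7.8e-06) in ODN over Control, by 0.86 (SE 0.0901, 1.16e-05) in ODN+IM156 over Control and by 0.81 (SE 0.0900, 1.46e-05) in ODN+IM156 over IM156, by edgeR's quasi-likelihood test with Benjamini-Hochberg adjustment. ODN+IM156 over ODN gave -0.02 (SE 0.0889, adjusted p = 0.937), and the sign turned with the scaling and with single libraries. The first 3 calls held under each of 22 alternative settings. Without ODN replicate 3 the first rise was 0.89. The 5′ end of Psmb9 shares 212 bases with Tap1 on the opposite strand, whereas the reads come from 3′ ends.

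Psme1, the alpha subunit of the interferon-inducible activator, was highest where both agents were given. It had 369, 368 and 379 CPM in the ODN+IM156 libraries, 343, 280 and 347 in the ODN libraries, 270, 241 and 262 in the IM156 libraries and 288, 250 and 255 in the Control libraries. The ODN+IM156 libraries lay above all 9 others, while ODN replicate 2 lay within the range of Control. Psme1 rose by 0.49 in ODN+IM156 over Control (SE 0.0935, adjusted p = 0.00628) and by 0.53 over IM156 (SE 0.0935, adjusted p = 0.00282; edgeR's quasi-likelihood test). The rise over Control was not called without Control replicate 2 (adjusted p = 0.0574). ODN over Control gave 0.29 (adjusted p = 0.0522) and was called in 7 of 22 alternatives. ODN+IM156 over ODN gave 0.20 (SE 0.0931, adjusted p = 0.288, edgeR's quasi-likelihood test) and was not called, nor was it in any of 22 alternatives. Psme1 lies on chromosome 14 at 55578123 to 55581529, and its 3′ end overlaps Emc9 on the opposite strand. The Emc9 row had 0.431 to 0.466 times the Psme1 level in every library, and Emc9 rose by 0.52 in ODN+IM156 over Control and by 0.59 over IM156. The strand rule of the counting is not given in the sources used here, so reads in that stretch cannot be told apart.

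Psmb8 encodes the inducible subunit that replaces Psmb5. Its level was 569, 536 and 615 CPM in the ODN+IM156 libraries, 591, 536 and 530 in the ODN libraries, 445, 457 and 458 in the IM156 libraries and 519, 447 and 439 in the Control libraries. Both groups with ODN lay above both groups without it, with a narrow gap to Control replicate 1. Psmb8 rose by 0.34 in ODN+IM156 over IM156 (SE 0.0892, adjusted p = 0.0482, edgeR's quasi-likelihood test). This call held in 12 of 22 alternatives and was lost on leaving out any 1 of the IM156 or ODN+IM156 libraries (adjusted p = 0.0751 to 0.222), Control replicate 2 (0.0533) or Control replicate 3 (0.0534). The difference was 0.24 in ODN over Control (adjusted p = 0.0977) and 0.29 in ODN+IM156 over Control (adjusted p = 0.123), neither of them called in the main fit. Without Control replicate 1 both were called, at 0.32 (adjusted p = 0.0334) and 0.37 (adjusted p = 0.0472, edgeR's quasi-likelihood test). DESeq2 also called the second (0.29, adjusted p = 0.0303). An antisense gene, Gm20496, is annotated at the 3′ end of Psmb8.

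Psmb10 encodes the inducible subunit that replaces Psmb7, and was not called in any comparison. It had 165, 159 and 179 CPM in the ODN+IM156 libraries, 125, 163 and 157 in the ODN libraries, 128, 129 and 129 in the IM156 libraries and 150, 137 and 119 in the Control libraries. The ODN+IM156 libraries were above those of IM156 and Control, and the ODN libraries overlapped all other groups. The difference of ODN+IM156 over IM156 was 0.38 (SE 0.103, adjusted p = 0.0540, edgeR's quasi-likelihood test). That test passed in 10 of 22 alternatives. The antisense gene Gm16156 is annotated at its 3′ end.

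Psme2, the beta subunit of the activator, lies 5911 bases from Psme1 and was not called either. Its levels were 173, 143 and 178 CPM in the ODN+IM156 libraries, 121, 154 and 142 in the ODN libraries, 134, 139 and 139 in the IM156 libraries and 146, 122 and 133 in the Control libraries. Groups overlapped, except that ODN+IM156 lay above IM156. That difference was 0.26 in the main fit (SE 0.103, adjusted p = 0.219, edgeR's quasi-likelihood test). Among the alternatives it was called only with just those groups fitted (0.27, adjusted p = 0.0433, same test). The last 300 bases of Psme2 are 99% identical to those of Psme2b, whose own row averaged 395 ± 36.7 CPM in ODN+IM156, 337 ± 36.5 in ODN, 331 ± 11.5 in IM156 and 337 ± 18.98 in Control (SD, n = 3 each). Reads of the pair cannot be placed with certainty. With both rows summed, a setting chosen after seeing the data, the difference of ODN+IM156 over IM156 was 0.26 (adjusted p = 0.193, edgeR's quasi-likelihood test).

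**Figure D1:**
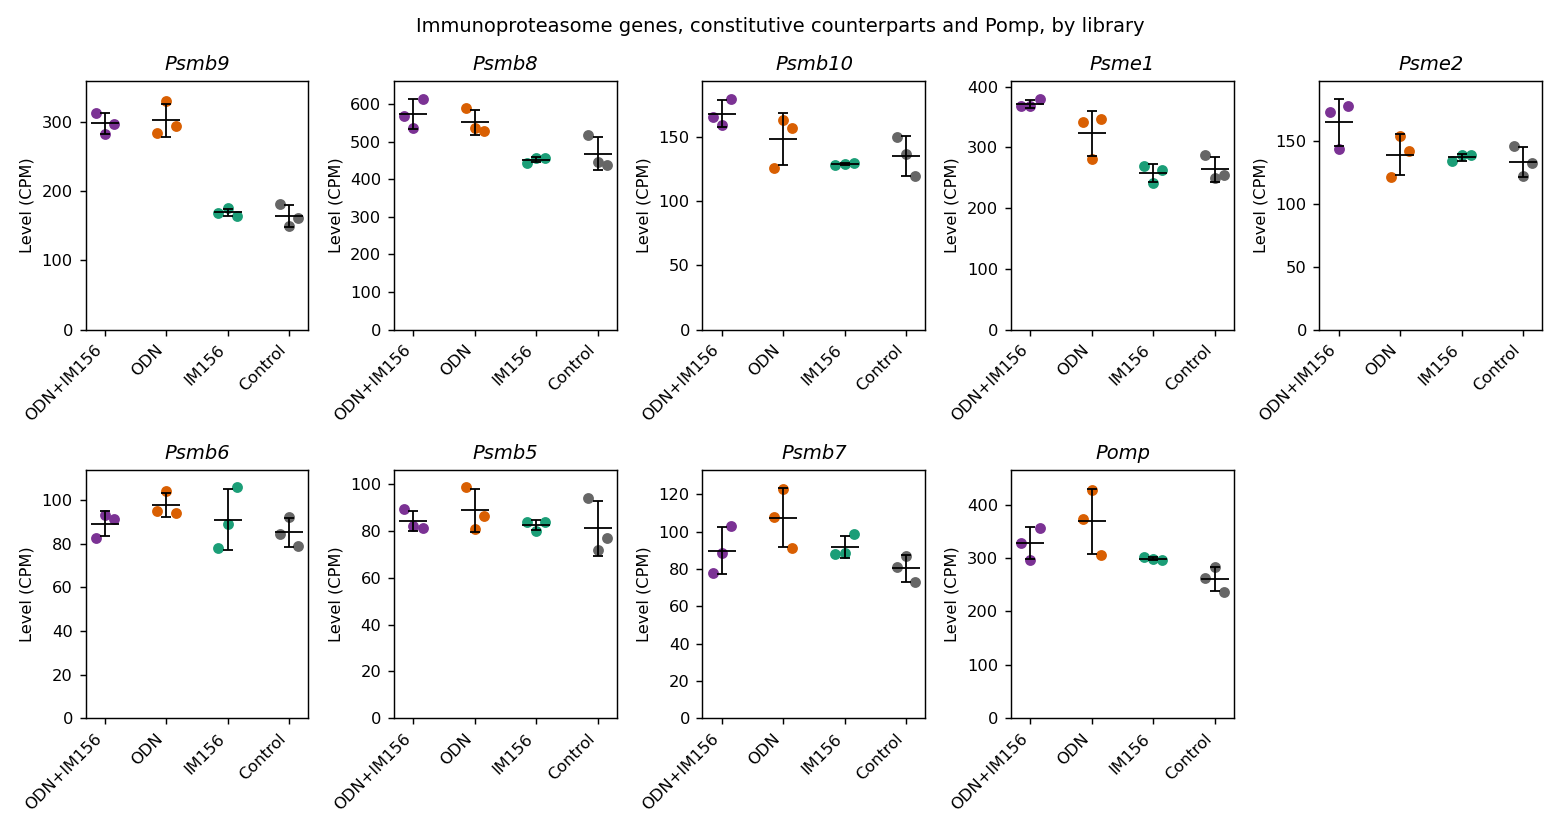
Level in CPM (y axis, from 0) of the 5 immunoproteasome genes in the top row, and of their constitutive counterparts and Pomp in the bottom row, in each of 12 libraries by group, with the mean and SD of 3 libraries. Psmb9 separates all 6 libraries with ODN (282 to 329 CPM) from all 6 without (150 to 182 CPM), whereas Psmb5 overlaps across all groups.

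Of the constitutive catalytic genes, only Psmb7 was called, in ODN over Control. Psmb6 had 82.8, 93.3 and 91.6 CPM in the ODN+IM156 libraries, 95.3, 104 and 94.1 in the ODN libraries, 78.1, 89.3 and 106 in the IM156 libraries and 84.6, 92.3 and 79.2 in the Control libraries. Psmb5 had 89.2, 82.0 and 81.2 CPM in the ODN+IM156 libraries, 98.6, 81.0 and 86.5 in the ODN libraries, 83.7, 80.1 and 83.7 in the IM156 libraries and 94.1, 71.9 and 77.1 in the Control libraries. Neither was called, at 0.20 (Psmb6) and 0.13 (Psmb5) in ODN over Control. Psmb7 had 78.1, 88.4 and 103 CPM in the ODN+IM156 libraries, 108, 123 and 91.3 in the ODN libraries, 88.2, 88.6 and 98.9 in the IM156 libraries and 81.2, 86.9 and 72.8 in the Control libraries. The ODN libraries lay above those of Control and overlapped the other groups. Psmb7 rose by 0.42 in ODN over Control (SE 0.118, adjusted p = 0.0271, edgeR's quasi-likelihood test), a call lost on leaving out either of Control replicates 1 and 3 or either of ODN replicates 1 and 2 (adjusted p = 0.0548 to 0.133).

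The exchange of catalytic subunits was compared within each library as the log2 ratio of the inducible gene over its counterpart. Counts come from 3′ ends and are not corrected for length, so only the difference of a ratio between groups is read. The test was an exact two-sided permutation of the ODN labels within each IM156 stratum, with 400 arrangements. Psmb9 over Psmb6 averaged 1.67 ± 0.124 in the libraries with ODN and 0.92 ± 0.206 in those without (SD, n = 6 each). The difference was 0.76 on the log2 scale, or 1.69-fold, with an exact permutation p of 0.005, the smallest this design can give (0.015 adjusted over the 3 ratios). The lowest ratio with ODN was 1.57 and the highest without was 1.10. Psmb8 over Psmb5 averaged 2.70 ± 0.119 with ODN and 2.49 ± 0.0776 without, a difference of 0.21 with overlapping libraries (exact permutation p = 0.015, adjusted 0.0225). This ratio averaged 2.76 ± 0.133 in ODN+IM156 and 2.63 ± 0.0747 in ODN (SD, n = 3 each). In IM156 it averaged 2.45 ± 0.0506 and in Control 2.53 ± 0.0885. ODN and Control libraries overlapped, while all ODN+IM156 libraries lay above all IM156 libraries. The test pooled both strata, and ODN over Control alone was not tested for the ratios. Psmb10 over Psmb7 averaged 0.69 ± 0.316 with ODN and 0.62 ± 0.171 without, a difference of 0.07 (exact permutation p = 0.64, adjusted 0.64). By group, that last ratio was 0.90 ± 0.151 in ODN+IM156, 0.47 ± 0.287 in ODN, 0.48 ± 0.0864 in IM156 and 0.75 ± 0.121 in Control (SD, n = 3 each).

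**Figure D2:**
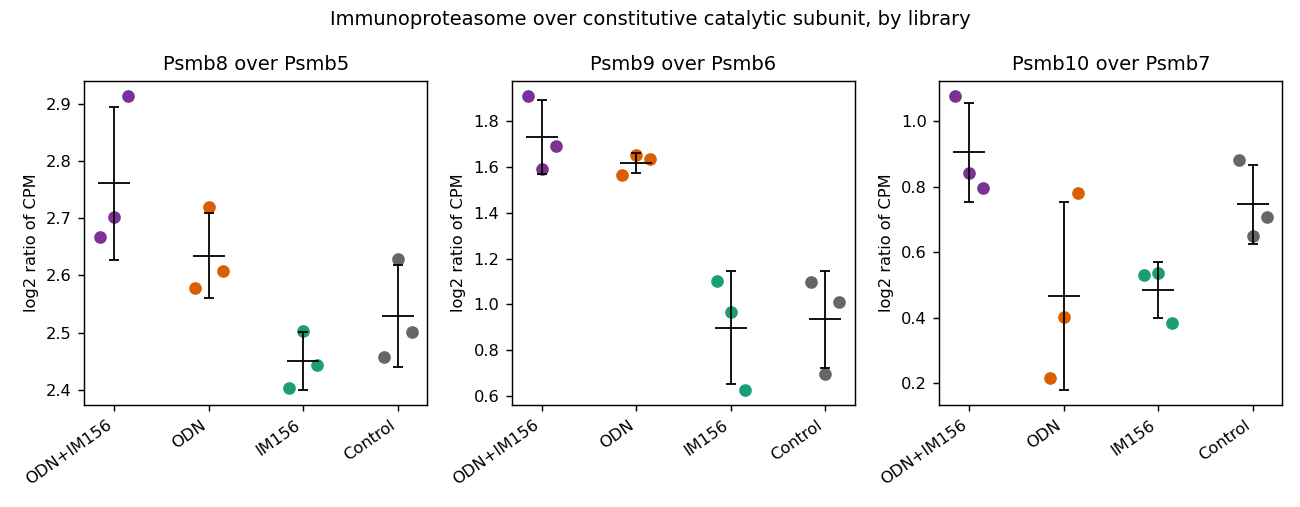
Log2 ratio of the CPM of each inducible catalytic gene over its constitutive counterpart (y axis) in each of 12 libraries by group, with the mean and SD of 3 libraries. Psmb9 over Psmb6 lies at 1.57 or above in all libraries with ODN and at 1.10 or below in all without, and Psmb10 over Psmb7 has no such gap.

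In ODN over Control, 7 of the 42 genes rose and 0 fell, where 7.34% of all genes tested rose and 3.25% fell (10.6% in either direction). DESeq2 called 11 higher and 0 lower, where it called 12.4% of all genes tested in either direction. An unadjusted p below 0.05 by edgeR was found for 18 of the 42, all with positive fold changes, and for 25.2% of all genes tested. Of the 7, Psmb9 is among the 5 immunoproteasome genes and 6 are among the other 37. Of these 6, only Psmb7 encodes a subunit that is replaced in the immunoproteasome. Scaled by library totals only, 695 genes of all tested (5.86%) rose and 720 (6.07%) fell, and the members' count was 3. That count was 2 when Control replicate 3 was left out, 3 when either ODN replicate 1 or replicate 2 was, and 13 when ODN replicate 3 was (9.45% of all genes tested rose in that last setting). The share of all genes is not given here for the other omissions.

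Pomp, on chromosome 5 at 147860461 to 147876456, had the largest rise in ODN over Control among the 37 genes outside the immunoproteasome set. It had 373, 427 and 306 CPM in the ODN libraries and 263, 283 and 237 in the Control libraries, with no overlap. The ODN+IM156 libraries had 328.5, 297 and 357 CPM and the IM156 libraries 302, 298 and 297. Pomp rose by 0.50 in ODN over Control (SE 0.109, adjusted p = 0.00508, edgeR's quasi-likelihood test), and this call held in 22 of 22 alternatives. ODN+IM156 over Control gave 0.33 (adjusted p = 0.168).

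In the beta ring, the structural subunits Psmb1 and Psmb2 rose beside Psmb7. Psmb1 had 355, 388 and 317 CPM in the ODN libraries and 285, 278 and 244 in the Control libraries (0.39, SE 0.0988, adjusted p = 0.0140). Psmb2 had 45.2, 45.2 and 36.4 CPM in the ODN libraries and 36.1, 26.7 and 28.1 in the Control libraries (0.48, SE 0.137, adjusted p = 0.0287; edgeR's quasi-likelihood test for both). Neither gene overlapped between the groups, though the lowest ODN library and the highest Control library of Psmb2 nearly met. Psma1 of the alpha ring had 127, 137 and 109 CPM in the ODN libraries and 88.3, 105 and 91.2 in the Control libraries. Psmd14, the deubiquitinase of the cap, had 122, 108 and 106 CPM in the ODN libraries and 90.8, 94.9 and 93.8 in the Control libraries. Both genes had every ODN library above every Control library. Psma1 rose by 0.39 (adjusted p = 0.0210) and Psmd14 by 0.27 (adjusted p = 0.0439, edgeR's quasi-likelihood test). Of 22 alternatives, 19 kept the call of Psmb1, 16 those of Psma1, Psmb2 and Psmb7, and 7 that of Psmd14. The libraries without which a call was lost were Control replicates 1 and 3 and ODN replicates 1 and 2 for Psma1, Control replicate 3 and ODN replicate 2 for Psmb1, and Control replicates 2 and 3 and ODN replicates 1 and 2 for Psmb2. Psmd14 lost its call without any 1 library other than ODN replicate 3.

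By role, median fold changes in ODN over Control were 0.30 for the 7 constitutive beta genes, 0.19 for the 7 alpha genes, 0.18 for the 6 cap ATPases and 0.11 for the 11 non-ATPase cap subunits. The constitutive beta genes are Psmb1 to Psmb7, of which only Psmb5, Psmb6 and Psmb7 encode subunits replaced in the immunoproteasome. The 4 assembly factors had a median of 0.30 and the activators Psme3 and Psme4 one of -0.02. The 5 immunoproteasome genes had a median of 0.24 and the other 37 one of 0.19, beside about 0.00 for all genes tested. Of the 37, 31 had a positive fold change, and 16 lay in every ODN library above every Control library, as did 2 of the 5 (13.2% of all genes tested did). ODN replicate 3 was the lowest of its group in 24 of the 37 genes.

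**Figure D3:**
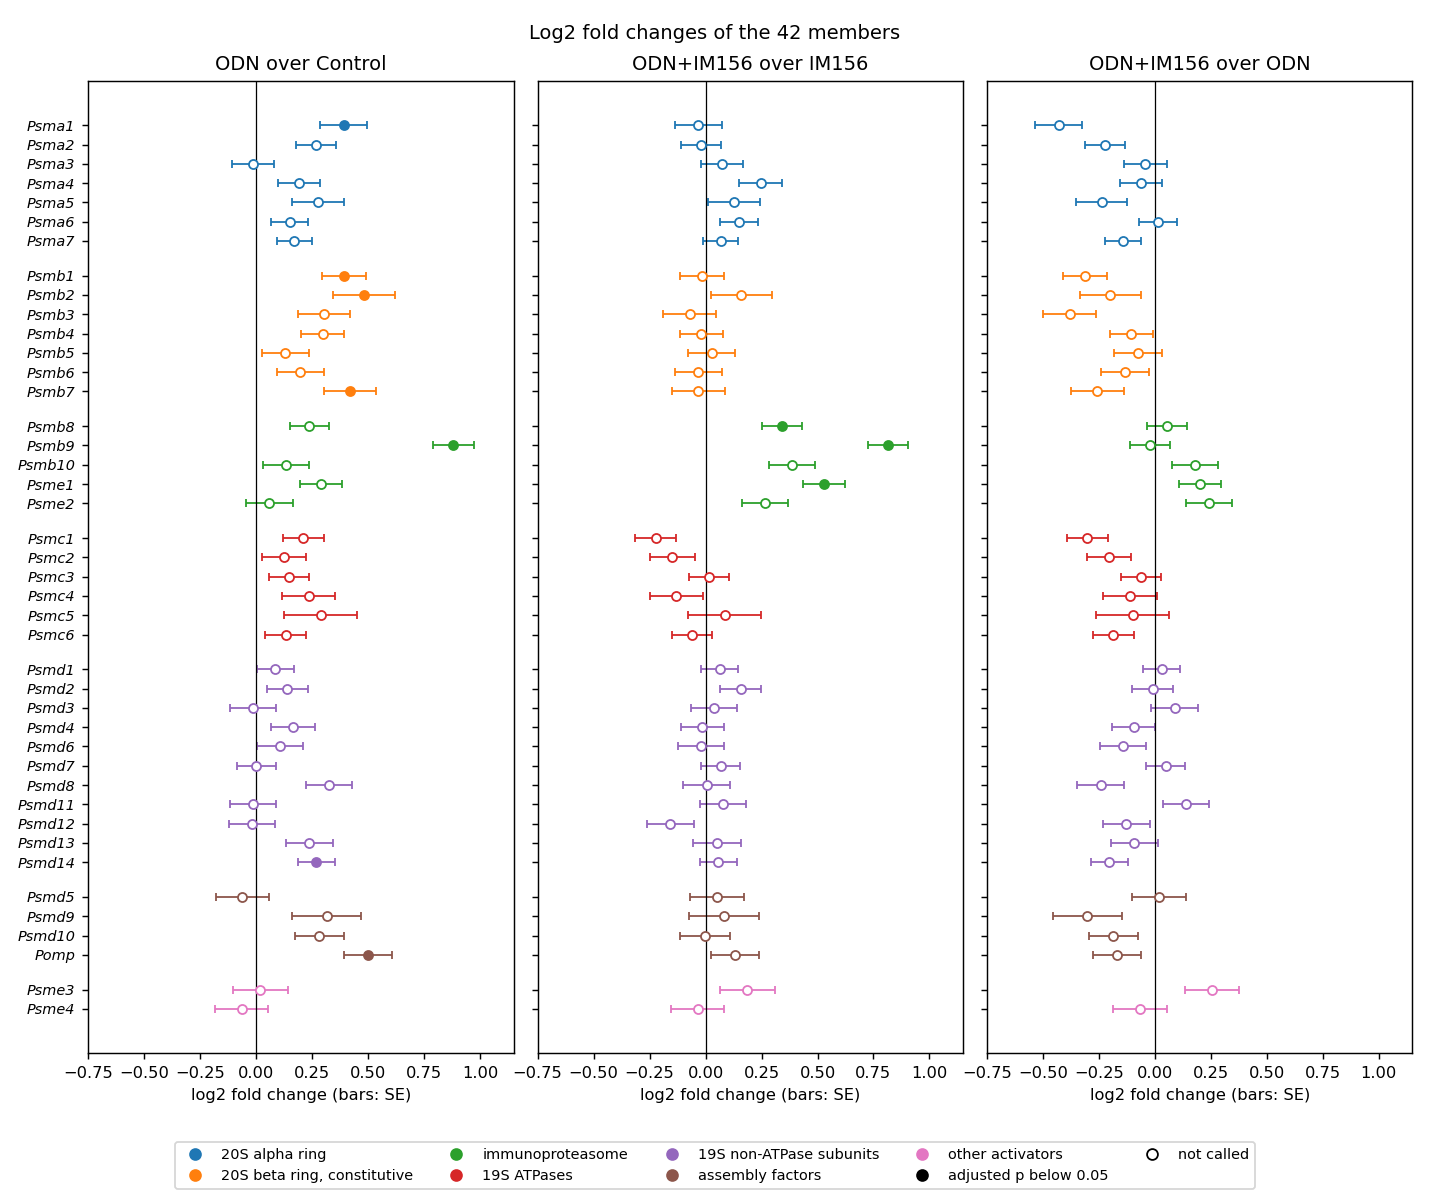
Log2 fold change with SE (x axis) of each of the 42 genes, ordered by role, in ODN over Control, ODN+IM156 over IM156 and ODN+IM156 over ODN, with filled points for adjusted p below 0.05. Called genes spread over several roles in the first panel (7 genes), are Psmb8, Psmb9 and Psme1 in the second, and are absent in the third.

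ODN+IM156 was set against each group without ODN. In ODN+IM156 over IM156, 3 of its 5 genes rose (Psmb9, Psme1 and Psmb8) and 0 of the other 37 were called, where 1.74% of all genes tested rose. The 0 is edgeR's count, beside 2 genes among the 37 (Psma4 and Psmc1) at an unadjusted p below 0.05 (14.4% of all genes tested) and 0 by DESeq2, which called Psmb10 in addition to the 3 (3.69% of all genes tested). It did not hold with only those 2 groups fitted, where Psma4 rose. In ODN+IM156 over Control, Psmb9 and Psme1 rose and 0 of the 37 were called by edgeR, where 1.25% of all genes tested rose. Here 2 of the 37 (Pomp and Psme3) had an unadjusted p below 0.05 (12.9% of all genes tested), and DESeq2 called Psmb8 besides Psmb9 and Psme1 (2.73% of all genes tested). This 0 did not hold either, since Pomp rose with no filter on low counts and with only those 2 groups fitted. Median fold changes over IM156 were 0.38 for the 5 and 0.03 for the 37, and over Control 0.31 and 0.07. All 5 immunoproteasome genes were in every ODN+IM156 library above every IM156 library, and 4 of the 37 were (12.8% of all genes tested). Over Control, 4 of the 5 and 4 of the 37 were (10.2% of all genes tested). These comparisons share the ODN+IM156 libraries, so they are not independent of each other.

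ODN+IM156 over ODN asks what the inhibitor changed in mice given the ligand. By edgeR 0 of 42 genes were called, where 0.0675% of all genes tested were. An unadjusted p below 0.05 was found for 10 of the 42 and for 16.2% of all genes tested. DESeq2 called 1 of the 42, Psma1, where it called 3% of all genes tested. Fold changes were negative for 30 of the 37 other genes (median -0.13) and positive for 4 of the 5 immunoproteasome genes (median 0.18). All 7 constitutive beta genes and all 6 cap ATPases had negative values, with medians of -0.20 and -0.15. Psma1 had 101, 82.4 and 93.4 CPM in the ODN+IM156 libraries and 127, 137 and 109 in the ODN libraries, with no overlap (-0.43, SE 0.105, adjusted p = 0.0631, edgeR's quasi-likelihood test). Psmb3, a structural beta subunit, had 79.4, 83.7 and 69.3 CPM in the ODN+IM156 libraries and 107, 103 and 91.9 in the ODN libraries (-0.38, adjusted p = 0.108). Of the 37, 10 had every ODN+IM156 library below every ODN library, where 10% of all genes tested did, and 1 had them above, as did Psme1 of the 5 (9.07% of all genes tested). Without ODN replicate 3, Psma1, Psmb1 and Psmb3 were called lower, as were 4.36% of all genes tested.

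IM156 over Control gave 0 called genes of 42 by edgeR and 0 by DESeq2, with 2 (Psmb4 and Psmc4) at an unadjusted p below 0.05 (3.7% of all genes tested). The background was 0% by edgeR, and DESeq2 called 2 of all genes tested (0.0169%). Psmb4, a structural beta subunit, had 193, 190 and 194 CPM in the IM156 libraries and 178, 172 and 148 in the Control libraries (0.21, adjusted p = 0.999, edgeR's quasi-likelihood test). Medians were -0.04 for the 5 immunoproteasome genes and 0.05 for the other 37. Of the 5, 0 lay in every IM156 library above every Control library, and 4 of the 37 did (5.16% of all genes tested).

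The difference between the effects of IM156 with and without ODN was tested as an interaction. By edgeR, 0 of 42 genes and 0 of all genes tested (0%) were called, and DESeq2 called 0 of 42 and 119 of all genes tested (1%). An unadjusted p below 0.05 was found for 10 of the 42 and for 12.3% of all genes tested. Among the 10 were Psmc1 (-0.43, unadjusted p = 0.00353, adjusted 0.187), Psmb1 (-0.41) and Pomp (-0.37). Medians were 0.20 for the 5 immunoproteasome genes, none of which had an unadjusted p below 0.05, and -0.19 for the other 37. All 7 constitutive beta genes and all 6 cap ATPases were negative. The same interaction is the difference between the effects of ODN with and without IM156, so a gene called in ODN over Control and not in ODN+IM156 over IM156, such as Pomp, was not shown to differ between them.

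Summed over the 5 immunoproteasome genes, levels were 1590, 1489 and 1648 CPM in the ODN+IM156 libraries, 1464, 1462 and 1469 in the ODN libraries, 1145, 1140 and 1152 in the IM156 libraries and 1285, 1106 and 1106 in the Control libraries. The other 37 summed to 4472, 4512 and 4535 CPM in the ODN+IM156 libraries, 5114, 5142 and 4618 in the ODN libraries, 4276, 4365 and 4628 in the IM156 libraries and 4397, 4306 and 4086 in the Control libraries. The immunoproteasome sum separated both groups with ODN from both without (lowest library with ODN 1462 CPM, highest without 1285 CPM), and for the 37 these groups overlapped. The 5 genes did not share alike in this sum. ODN and Control averaged 302 and 164 CPM for Psmb9, 552 and 468 for Psmb8 and 323 and 264 for Psme1. For Psmb10 they averaged 148 and 135 CPM, and for Psme2 139 and 134. The ODN and Control libraries of Psme1, Psmb10 and Psme2 overlapped. The 5 genes made up 25.9 ± 0.965% of the summed CPM of the 42 in ODN+IM156, 22.8 ± 1.12% in ODN, 20.6 ± 0.599% in IM156 and 21.4 ± 1.10% in Control (SD, n = 3 each). ODN+IM156 lay above all other groups in this share (lowest library 24.8%, against 24.1% for ODN replicate 3, the highest of the others). These sums are descriptions with no test.

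**Figure D4:**
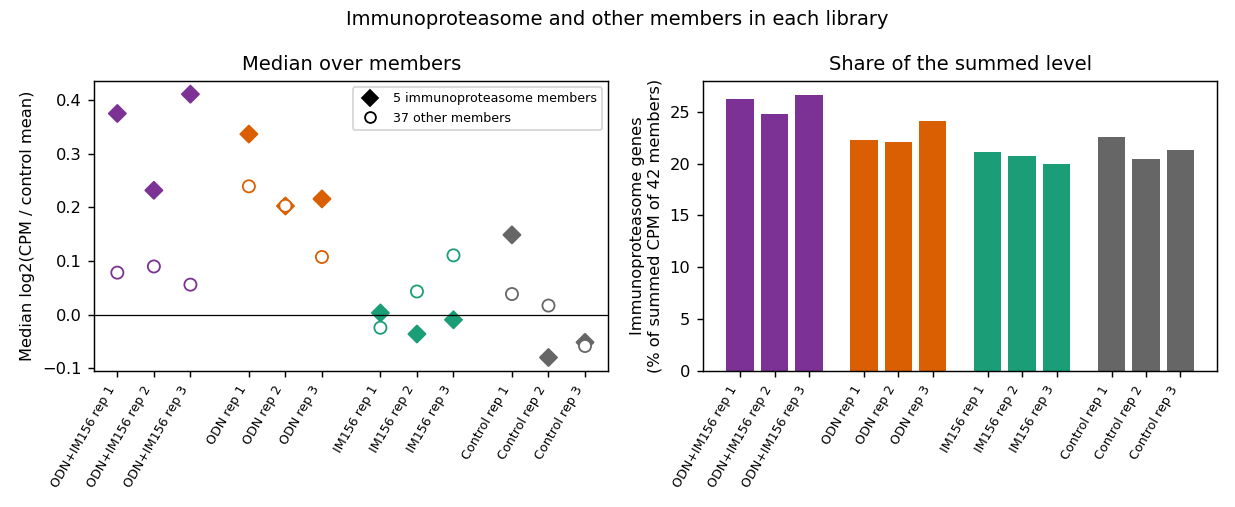
Left, median log2 ratio of the CPM to the Control mean over the 5 immunoproteasome genes (diamonds) and the other 37 genes (circles) in each library. Right, the percentage of the summed CPM of the 42 genes that comes from the 5, which is 24.8% to 26.7% in ODN+IM156 and 24.1% or less in the other libraries.

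Genes linked to immunoproteasome transcription were examined beside the members. Of 8 such genes reported here, 3 rose in ODN+IM156 over Control and 3 over IM156 (Irf1, Irf8 and Nlrc5 in both), and 2 rose in ODN over Control (Irf8 and Nlrc5). By edgeR, 0 of the 8 were called in ODN+IM156 over ODN and 0 in the interaction (0.0675% and 0% of all genes tested). In these 2 tests, 2 and 3 of the 8 had an unadjusted p below 0.05 (16.2% and 12.3% of all genes tested). By edgeR, a difference between ODN+IM156 and ODN was thus not shown for any of them. DESeq2 called 3% of all genes tested in ODN+IM156 over ODN and 1% in the interaction, and its results for these 8 are not given here. Irf1, an interferon-induced transcription factor, had 579, 475 and 497 CPM in the ODN+IM156 libraries, 251, 317 and 522 in the ODN libraries, 221, 248 and 284 in the IM156 libraries and 283, 268 and 267 in the Control libraries. ODN replicate 3 was with the ODN+IM156 libraries and ODN replicate 1 with those of Control. Irf1 rose by 0.92 in ODN+IM156 over Control (adjusted p = 0.00628) and by 1.04 over IM156 (0.00172), while ODN over Control gave 0.42 (0.141, edgeR's quasi-likelihood test for all). Nlrc5, the transactivator of MHC class I genes, averaged 95.04 ± 11.4 CPM in ODN+IM156, 65.6 ± 13.7 in ODN, 44.7 ± 2.47 in IM156 and 47.3 ± 1.70 in Control. It rose by 1.01, 0.47 and 1.09 in ODN+IM156 over Control, ODN over Control and ODN+IM156 over IM156. Irf8, an interferon regulatory factor of B cells and myeloid cells, averaged 1049 ± 37.3 CPM in ODN+IM156, 971 ± 68.8 in ODN, 765 ± 17.2 in IM156 and 754 ± 49.3 in Control (SD, n = 3 each).

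Of 9 genes of MHC class I peptide supply, Tap1 and B2m rose in ODN over Control, ODN+IM156 over Control and ODN+IM156 over IM156. Tap1, 1 chain of the peptide transporter and the neighbour of Psmb9, averaged 402 ± 23.9 CPM in ODN+IM156, 368 ± 58.7 in ODN, 205 ± 9.98 in IM156 and 238 ± 16.1 in Control. Its rises were 0.76 over Control with both agents, 0.63 over Control with ODN alone and 0.98 over IM156. B2m, the light chain of MHC class I, averaged 7796 ± 391 CPM in ODN+IM156, 9186 ± 687 in ODN, 6062 ± 396 in IM156 and 5776 ± 433 in Control. Tap2, the other chain of the transporter, averaged 185 ± 14.6, 175 ± 25.7, 140 ± 7.01 and 150 ± 26.0 CPM in the same order and was not called. Nfe2l1, a transcription factor of the constitutive subunits, fell by 0.46 in ODN over Control (39.3 ± 6.80 and 54.2 ± 1.79 CPM, adjusted p = 0.0132, edgeR's quasi-likelihood test) and was the only called gene of the 4 on its list. In the same comparison the proteasome-associated thioredoxin Txnl1 rose by 0.34 (1 of 9 tested associated genes). The inhibitor gene Psmf1 (31.8 ± 1.68, 33.2 ± 3.76, 30.8 ± 4.07 and 30.0 ± 0.282 CPM in the order of groups above) and the 4 tested assembly chaperones were not called.

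**Figure D5:**
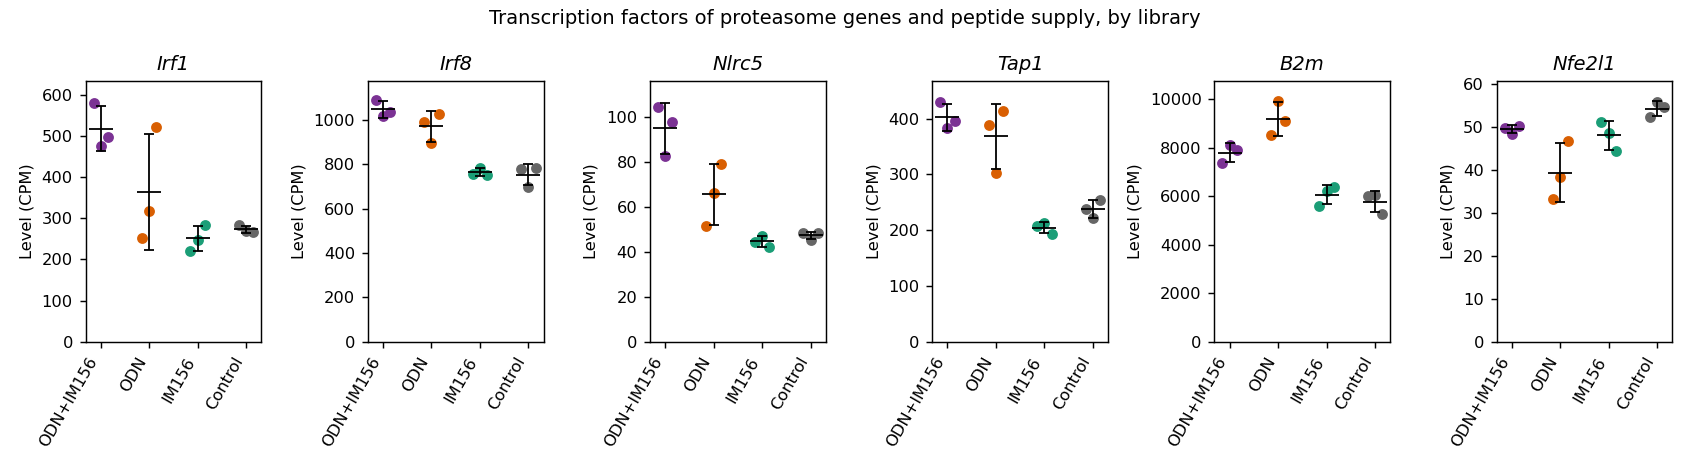
Level in CPM (y axis, from 0) of Irf1, Irf8, Nlrc5, Tap1, B2m and Nfe2l1 in each of 12 libraries by group, with the mean and SD of 3 libraries. Nlrc5 is 82.5 to 105 CPM in ODN+IM156 and 42.4 to 48.4 CPM in the groups without ODN, and Irf1 spreads from 251 to 522 CPM within ODN.

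Markers of other cells moved with ODN beside these genes. Of 4 platelet markers, all rose in ODN over Control and in ODN+IM156 over Control, and 3 in ODN+IM156 over IM156. Their sums spanned 90.3 to 123 CPM across ODN+IM156 libraries, 88.7 to 151 CPM across ODN libraries, 38.3 to 40.6 CPM across IM156 libraries and 21.3 to 34.7 CPM across Control libraries. The 6 dendritic cell markers spanned 40.3 to 71.6 CPM in ODN+IM156, 39.1 to 41.9 CPM in ODN, 19.1 to 29.7 CPM in IM156 and 24.2 to 34.8 CPM in Control when summed, and the 7 monocyte and macrophage markers to 41.7 to 73.0, 29.9 to 57.2, 22.2 to 47.2 and 15.97 to 39.4 CPM in the same order. Of the dendritic cell markers, 3 rose in ODN+IM156 over Control, 1 in ODN over Control and 2 in ODN+IM156 over IM156. Of the monocyte and macrophage markers, the numbers were 2, 3 and 0. All 5 tested dendritic cell markers had positive fold changes in these comparisons, though Flt3 averaged 15.1 CPM in Control and 17.1 in ODN. Siglech, also in the dendritic cell sum, went the other way, at 0.789 CPM in Control, 0.318 in ODN and 0.0295 in ODN+IM156 on average. The 6 NK-cell markers summed to 5.32 to 10.1 CPM in ODN+IM156, 8.64 to 15.7 CPM in ODN, 1.02 to 2.34 CPM in IM156 and 0.817 to 2.71 in Control, with Ncr1 at 0 in IM156 and Control. The 5 neutrophil markers present summed to 18.2 to 24.2 CPM in ODN+IM156, 22.8 to 87.6 CPM in ODN, 2.39 to 5.71 CPM in IM156 and 5.13 to 8.35 in Control, with Camp and Ltf at 0 in IM156. The 5 erythroid markers summed to 44.0 to 96.8 CPM in ODN+IM156, 74.8 to 186 CPM in ODN, 68.8 to 414 CPM in IM156 and 489 to 633 in Control. T-cell markers summed to at most 14.8 CPM and plasma cell markers to at most 281 CPM in any library. By count of called genes, 1 of 3 tested NK-cell markers rose in ODN over Control, 1 in ODN+IM156 over Control and 2 in ODN+IM156 over IM156. For 3 tested neutrophil markers the numbers were 2, 0 and 2, and of 4 tested erythroid markers 3, 3 and 2 fell. The part of other cells in the differences of Psmb9, Psme1 and Psmb8 was not tested.

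Some members resemble or overlap other annotated sequences at their 3′ ends. The last 300 bases of Psma3, Psma4, Psma5, Psmb3, Psmb5, Psmd11 and Psme1 are at least 95% identical over 150 bases or more to processed pseudogenes with no row of their own. Whether reads of those pseudogenes are counted there was not tested, and these counts are uncertain to that extent. The 3′ end of Psmb7 overlaps Nek6 on the opposite strand, whose row averaged 2.38 to 3.61 CPM per group.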

How the data were processed

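RNA of splenic B cells was read with a QuantSeq 3′ mRNA kit, per the labels' protocols, which counts transcripts at their 3′ ends. The deposited table holds raw counts per gene, with 12 further columns of per-sample values that were not used. Bowtie2, bedtools and edgeR with GRCm38 (mm10) are named in the submitters' processing notes, while versions, annotation and strand rule are not given in the sources used here. Of 23282 rows, 5883 had no count.

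The counts went into edgeR 4.0.16 (R 4.3.3): filterByExpr (11857 genes kept), TMM factors, and a quasi-likelihood fit of 1 mean per group over all 12 libraries (8 residual degrees of freedom). Tests were two-sided, with Benjamini-Hochberg adjustment over all genes tested. The steps were tested on simulated data. Catalytic ratios used a pseudocount of 0.5 CPM. Alternatives were other scalings and filters, DESeq2 1.42.0, a robust fit, only the 2 groups compared (groups of 3 libraries each), Rn45s left out, a replicate block and each library left out. The 22 alternatives also include the sum of the Psme2 and Psme2b rows, a setting chosen after seeing the data. For genes other than Psme2 it nearly repeats the main fit, so it adds no check of their calls.

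The labels do not say whether the libraries are separate animals, so p-values measure only the spread between these libraries, which may be technical. Libraries of a group differed by 5.14 to 22.3 times counting error (chi-square divided by its degrees of freedom, genes of 20 or more counts), and by 65.1 and 67.8 times in the 2 pairs that hold ODN replicate 2. This measure includes the Rn45s row, which held 1.456% of counts in ODN replicate 2 against 7.977% and 8.425% in ODN replicates 1 and 3. It was not taken without that row, so the 2 large values do not describe the other genes alone.

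All 42 genes could be named. Immunoproteasome genes, their counterparts and Pomp were described in full, as were the largest called changes and genes of the listed pathways, up to 6 per list. The members and lists were chosen with earlier results of these data known. Gene positions are from GENCODE vM21 (GRCm38), and start-site windows from RefSeq (GRCm38.p6). Protein sequences were not used here. Some genes of the pathway lists are not reported here.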

Additional observations from a re-analysis of the deposited data

How the results depend on the processing

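Calls of members in ODN over Control were 7, and 3 with library totals alone, 11 with a minimum mean of 5 CPM, 11 with DESeq2, 2 with only the ODN and Control libraries, and 2 (without Control replicate 3) to 13 (without ODN replicate 3) on leaving out a library. In ODN+IM156 over Control they were 2, and 1 (without Control replicate 2) to 3 on leaving out a library. ODN+IM156 over IM156 had 3, against 6 with only those groups and 2 to 4 on leaving out a library. ODN+IM156 over ODN had 0, against 3 with no filter on low counts, 1 with DESeq2, 1 with a robust fit, and 0 to 3 (without ODN replicate 3) on leaving out a library. IM156 over Control and the interaction had 0 under every alternative. In ODN over Control, 7.34% of all genes tested rose in the main fit, 5.86% with library totals alone and 9.45% without ODN replicate 3. DESeq2 called 12.4% in either direction there. The share of all genes called is not given here for the remaining edgeR settings. A moved count is thus not read as particular to the members. The cause was not tested.

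Psme2 in ODN over Control turned to -0.0051 with library totals alone, -0.00069 without Control replicate 2 and -0.019 without ODN replicate 2 (-0.019 to 0.15 on leaving out a library). In ODN+IM156 over IM156, Psmb5 turned to -0.0099 with library totals alone and -0.016 without ODN+IM156 replicate 1 (to 0.053). Psmb6 turned to 0.092 without IM156 replicate 3 and 0.019 without ODN+IM156 replicate 1 (lowest -0.13), and Psmb7 to 0.024 and 0.060 without the same libraries (lowest -0.14). Psmb9 in ODN+IM156 over ODN turned to 0.026 with library totals alone, 0.046 without ODN replicate 2 and 0.014 without ODN+IM156 replicate 2 (lowest -0.063). None of these values was called. Psmb10 over Psmb7 turned to -0.0082 without ODN replicate 3 (range on leaving out a library -0.0082 to 0.13). The ratios of Psmb9 over Psmb6 (0.69 to 0.81) and Psmb8 over Psmb5 (0.17 to 0.23) stayed positive, with adjusted exact permutation p of at most 0.0375 on leaving out a library or with another pseudocount, and of 0.0469 for both with the replicate block. Of gene values under the alternatives, 644 kept direction and side of the threshold, 47 lost a call, 23 gained one and 12 turned.

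The replicate number as a block gave 8 calls in ODN over Control, 2 in ODN+IM156 over Control and 2 in ODN+IM156 over IM156. The share of all genes called with this block is not given here. Deviations of same-numbered libraries correlated at -0.114 to 0.0903 over 18 pairs of libraries, so the numbers were not taken as pairs.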
